A study of Mus musculus with 8 samples.

Results

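Cytosolic ribosomal protein genes encode the proteins of the large (60S) and small (40S) subunits of the ribosome that translates nuclear-encoded mRNAs. Members were the protein-coding genes of the GENCODE M21 annotation of mm10 whose symbols follow the Rpl and Rps naming pattern, together with *Rplp0*, *Rplp1*, *Rplp2* and *Rpsa*. This gave 80 genes of 21951 protein-coding genes, 49 for the large subunit and 31 for the small subunit. They lie on 19 chromosomes and are short, with a median length of 3328.5 bp (828 to 31449 bp) beside 17403 bp over all protein-coding genes. The rule uses gene symbols and no peak values.

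RNA:DNA hybrids were mapped by DRIP-seq in mouse embryonic fibroblasts (MEFs) of the genotype *Rtel1* F/F;WT RNH1-GFP, which carry floxed *Rtel1* alleles. In every condition the cells also carried human wild-type RNaseH1 fused to GFP under doxycycline control, an enzyme that degrades the RNA strand of hybrids. Cells infected with GFP adenovirus kept *Rtel1*, which encodes a DNA helicase, and cells infected with Cre adenovirus had it deleted; 48 h later they were given doxycycline at 2 µg/ml (DOX) or mock treated for another 48 h. The conditions are called GFP mock and GFP DOX, Cre mock and Cre DOX, and runs of 4 values below follow this order. Each has 1 DRIP library and 1 peak list, made from pooled parallel immunoprecipitations, and the 4 input libraries were not analysed here. Without replicates no difference between conditions could be tested. Intervals on shares are exact Clopper-Pearson intervals at 95% confidence and reflect the number of genes only. The age of the embryos and the number of independent cultures were not given in the sources used here, and peak lists hold no check of the cell type, of *Rtel1* deletion or of RNaseH1 induction.

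An R-loop forms when nascent RNA pairs with its DNA template behind RNA polymerase and the other DNA strand is left unpaired. Ribosomal protein genes are among the most heavily transcribed genes of growing cells, and their output is coordinated so that the subunits can be assembled in equal amounts. Their mRNAs start with a run of pyrimidines, the terminal oligopyrimidine (TOP) tract, through which the mTOR pathway controls their translation, and many of their introns hold small nucleolar RNAs (snoRNAs) that guide modification of ribosomal RNA.

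The sequences below show pyrimidine runs near the annotated starts of genes at opposite ends of the DRIP results. Each is a 30-base stretch of GRCm38.p6 (RefSeq promoter table, coding strand) that holds the longest pyrimidine run within 50 bases of a start, and capitals mark that run. The run begins 14, 16 and 2 bases before the annotated start in *Rpl7a*, *Rpl13* and *Rpl38*, 2 before it in *Rps18*, and 17, 3, 40 and 27 bases past it in *Rpl10a*, *Rps26*, *Rpl10* and *Rpl36a*, so not each of them is at the annotated start of the mRNA. The first 5 genes had a peak over a start in every list, and the other 3 had no peak in any list.

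*Rpl7a*, chr2:26910789-26910818, + strand: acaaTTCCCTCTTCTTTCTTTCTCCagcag
*Rpl13*, chr8:123102324-123102353, + strand: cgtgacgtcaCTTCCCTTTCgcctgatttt
*Rpl10a*, chr17:28328572-28328601, + strand: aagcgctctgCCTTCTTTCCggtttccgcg
*Rpl38*, chr11:114668568-114668597, + strand: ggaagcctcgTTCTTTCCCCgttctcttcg
*Rps18*, chr17:33955647-33955676, - strand: tcacttccgCTCTCTCTTCCacaggaggcc
*Rps26*, chr10:128626484-128626513, - strand: agccgccggaTCCTCTTTCgagtcttggct
*Rpl10*, chrX:74270836-74270865, + strand: cgtgagcaggcgtgggagcgTCTCTTTTCC
*Rpl36a*, chrX:134585673-134585702, + strand: ggctctagCCTCTCTCTTTCCgagctgcta

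The promoter table held 60 of the 80 members, with 72 promoters of 300 bases (250 before and 50 after a start). A run of at least 8 C or T within 50 bases of the start, on the coding strand, was present in 79.17% of the members' promoters and in 34.9% of the 20150 promoters of protein-coding genes. The median longest run was 10 bases against 6. Of the 4 members without a peak in any list, the 3 shown above have runs of 9, 10 and 13 bases, and *Rpl10l* has a longest run of 5. The run of *Rpl10* reaches the edge of the searched window, so it may be longer than 10 bases.

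Other short motifs were searched on both strands of the 300 bases. CTTTCC, which can lie inside a pyrimidine run, was in 50% of members' promoters and in 26.18% of all. CCGGAAG, a core of ETS factor motifs, was in 36.11% against 11.88%, and AAGATGG, a core of the YY1 motif, in 15.28% against 6.298%. A match describes these letters only.

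A peak overlapped the 250 bases before the start by at least 1 bp in 17 of these 60 members in GFP mock and 23 with doxycycline, and in 32 and 34 in the Cre lists (28.33, 38.33, 53.33 and 56.67%). Over all 16522 protein-coding genes in the table the shares were 13.2, 11.7, 17.4 and 12.2%. The sequences below are shown because a peak call bears on them directly: a peak overlapped that of *Rpl13* in every list, that of *Rpl23* in both Cre lists and in neither GFP list, and that of *Rpl36a* in none. None of them overlaps an annotated exon, and capitals mark runs of at least 8 C or T and matches to the motifs above.

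*Rpl13*, chr8:123102100-123102349, + strand: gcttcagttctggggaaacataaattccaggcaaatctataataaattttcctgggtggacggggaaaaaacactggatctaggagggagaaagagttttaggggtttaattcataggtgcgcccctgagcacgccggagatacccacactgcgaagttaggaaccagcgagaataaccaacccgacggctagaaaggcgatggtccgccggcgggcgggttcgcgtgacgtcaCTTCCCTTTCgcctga
*Rpl23*, chr11:97782440-97782689, - strand: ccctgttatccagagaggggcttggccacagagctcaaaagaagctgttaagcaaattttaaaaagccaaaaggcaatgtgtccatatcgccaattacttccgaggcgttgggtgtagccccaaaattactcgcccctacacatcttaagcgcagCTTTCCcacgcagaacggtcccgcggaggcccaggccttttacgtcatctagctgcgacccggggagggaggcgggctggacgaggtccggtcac
*Rpl36a*, chrX:134585404-134585653, + strand: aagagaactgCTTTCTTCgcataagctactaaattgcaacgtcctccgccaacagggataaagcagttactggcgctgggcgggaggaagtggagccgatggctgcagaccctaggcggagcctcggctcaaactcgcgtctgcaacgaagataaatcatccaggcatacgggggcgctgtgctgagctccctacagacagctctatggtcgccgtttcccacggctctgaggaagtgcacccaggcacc

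Most ribosomal protein genes had a DRIP peak in each list, with the fewest in GFP mock, more in GFP DOX and Cre mock, and the most in Cre DOX. A gene was counted when a peak of any score overlapped its body, extended by 1 kb on each side, by at least 1 bp. In GFP mock, 49 of the 80 genes had a peak (61.25%, interval 49.7 to 71.94%), beside 55% of all protein-coding genes. In GFP DOX there were 59 (73.75%, 62.71 to 82.96%), beside 46%. Cre mock had 69 (86.25%, 76.73 to 92.93%), beside 60.4%, and Cre DOX had 73 (91.25%, 82.8 to 96.41%), beside 54.1%. In GFP mock the background lay inside the members' interval, in the other 3 lists it lay below it, and the background itself did not follow the members' order.

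The lists differ in size, though not in the order of the members' counts, since GFP DOX is the smallest list and GFP mock has the fewest members. They hold 87613, 60219, 91097 and 105081 peaks and cover between 1.176% (GFP DOX) and 3.266% (Cre DOX) of the genome, with median scores of 17 to 19. Read depth is not part of the lists, and its part in the counts was not tested. When each list was cut to its highest-scoring peaks up to an equal covered length, the counts were 44, 59, 67 and 47, so the lead of Cre DOX over GFP DOX and Cre mock was lost. Cre mock also had more members than Cre DOX with equal numbers of peaks (67 and 63) and with peaks of a −log10 q-value of at least 2 (61 and 57). GFP mock stayed the lowest of the lists under each of the 12 alternative settings tried. Shares of all protein-coding genes were not computed with equal covered length, equal numbers of peaks or that q-value. Whether these changes of order are particular to the members was therefore not tested.

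**Figure D1:**
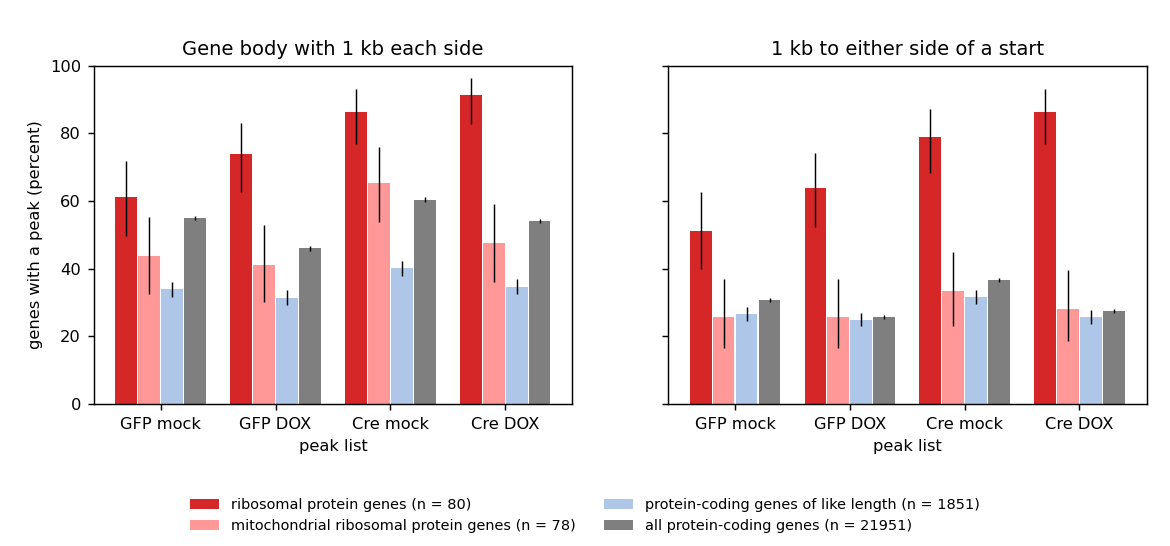
Share of genes with a DRIP peak (percent, y axis) in each of the 4 peak lists (x axis), for the extended gene body (left) and the 2 kb around a start (right), with exact 95% intervals on the number of genes. The 80 ribosomal protein genes reach 91.25% of bodies in Cre DOX, while protein-coding genes of like length stay between 31.44 and 40.09%.

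Short genes have less room for a peak, so the members were also set beside protein-coding genes whose length lies within the members' own quartiles (2502 to 4704.75 bp, n = 1851, members included). Of these, 33.87, 31.44, 40.09 and 34.63% had a peak. Restricting further to genes with the members' quartiles of GC content around the start left 447 genes, with 35.79, 36.47, 50.78 and 40.04%. Against genes of their own size the members were therefore higher in every list, GFP mock included.

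A peak within 1 kb of any annotated transcript start was found in 41 members in GFP mock (51.25%, beside 30.8% of all protein-coding genes), 51 with doxycycline (63.75%, beside 25.8%), and 63 (78.75%, beside 36.7%) and 69 (86.25%, beside 27.6%) in the Cre lists. The order of these counts was that of the extended bodies, and it too depended on the setting. With equal covered length the start counts were 39, 51, 57 and 40, so Cre DOX was below GFP DOX and Cre mock. With peaks of a −log10 q of 2 or more they were 22, 30, 53 and 50, and with equal numbers of peaks both Cre lists had 57. No share of all protein-coding genes was computed under these settings. Within 1 kb of a transcript end the counts were 34 (background 20.1%), 50 (18.4%), 64 (28.6%) and 70 (22.2%). In genes this short the start and end windows leave little between them, and 1 wide peak can meet both.

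Covered sequence shows the contrast with other genes more strongly than counts do. Peaks covered 9.322 and 20.3% of the members' extended bodies in the GFP lists and 33.73 and 35.36% in the Cre lists. Over all protein-coding genes the values were 1.32, 1.352, 2.329 and 2.52%, and the ratio of members to all was 7.062, 15.01, 14.48 and 14.03. For genes of like length the covered share was 4.798, 6.695, 9.725 and 8.102%. Fewer R-loops, shorter R-loops and weaker recovery in the pulldown cannot be told apart in these values.

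The median member was covered over 2.478, 14.79, 30.4 and 35.25% of its extended body. From GFP mock to Cre mock, 67 members were covered more and 6 less, whereas 46.98% of all protein-coding genes were covered more and 21.58% less. With doxycycline in GFP cells 52 members were covered more and 15 less (all genes 26.36 and 35.47%), so the balance of the members was opposite to that of the background there. In Cre cells 39 were covered more and 35 less with doxycycline (all genes 29.53 and 38.42%). Between the doxycycline lists, 66 were covered more in Cre and 8 less (all genes 43.46 and 17.64%). These comparisons share libraries and are not independent of each other.

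**Figure D2:**
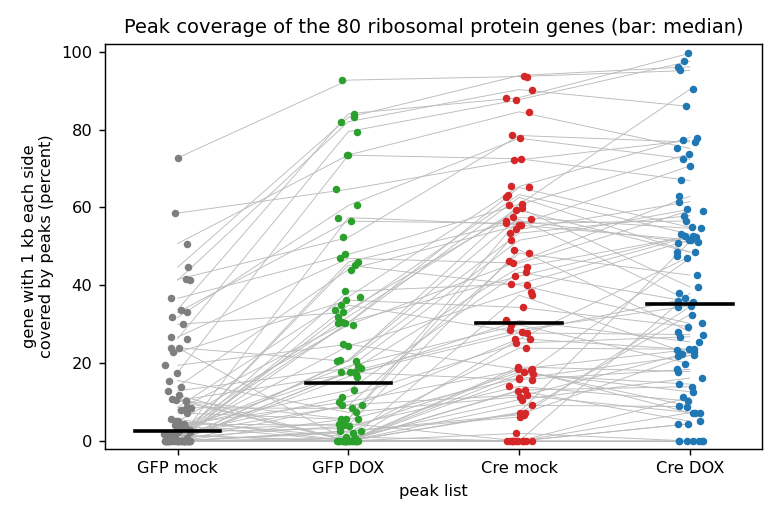
Share of each ribosomal protein gene with its 1 kb flanks that lay under peaks (percent, y axis) in the 4 lists (x axis); each point is a gene, grey lines join the same gene and black bars are medians. The medians are 2.478, 14.79, 30.4 and 35.25%, and the genes spread from 0 to 99.62% in Cre DOX.

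Along the gene, coverage was not limited to the start. In GFP mock the mean covered share was 15.03% from the start to the middle of the body and 6.556% from there to the end. In Cre mock it was 41.52 and 36.97%, in Cre DOX 45.94 and 37.27%, and in GFP DOX 31.19 and 19.48%. Coverage was thus lower towards the end of the gene in every list. In the 1 kb past the end it was 4.466, 12.94, 30.93 and 32.03%, so the Cre lists remained well above the GFP lists there.

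Exons of the members were covered over 10.82, 25.98, 41.94 and 41.37% in the 4 lists, and introns over 8.334, 17.87, 29.65 and 31.06%. Introns were thus covered somewhat less than exons in every list. Ribosomal protein genes have many processed copies elsewhere in the genome. Of the 100-base stretches centred in their exons, 4.843% occur elsewhere in identical form, against 0.2215% of those centred in introns. Of 294 pseudogenes named for ribosomal proteins, 5, 4, 8 and 4 had a peak in the 4 lists (1.701, 1.361, 2.721 and 1.361%), beside 2.797, 1.237, 2.646 and 2.535% of all processed pseudogenes. These pseudogenes have a median length of 459.5 bp, far below that of the members, of which 41, 54, 66 and 71 had a peak in the body itself.

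**Figure D3:**
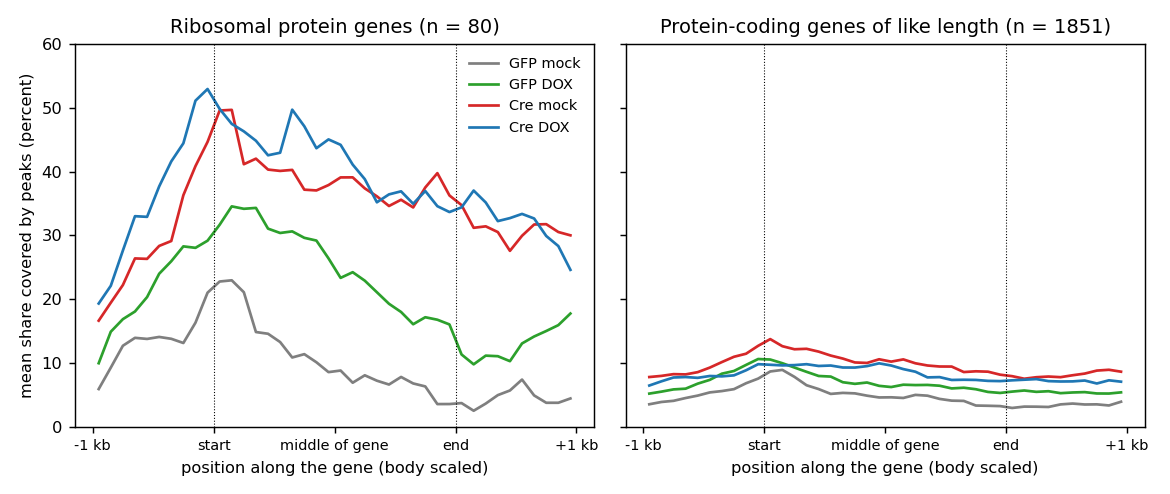
Mean share of sequence under peaks (percent, y axis) along ribosomal protein genes (left) and protein-coding genes of like length (right), with 1 kb flanks in bins of 100 bp and the body scaled to 20 bins. The members' curves peak at 22.95 and 34.54% in the GFP lists and at 49.67 and 52.94% in the Cre lists, all near the start, and all 4 curves are lower at the end of the gene.

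Digestion sets the size of the DNA pieces that are pulled down. The restriction fragment that holds a member's start had a median length of 1649 bp, close to the 1528 bp of all protein-coding genes, and members had a median of 5 cut sites in the body. Coverage of at least 90% of the body in both Cre lists was seen for 6 members, *Rpl8*, *Rpl13*, *Rpl13a*, *Rpl36*, *Rplp1* and *Rps18*. No member reached that in GFP mock, 4 did with doxycycline in GFP cells, and 7 and 10 did in the Cre lists, beside 0.109, 0.26, 0.387 and 0.369% of all protein-coding genes (0.2161, 1.08, 1.729 and 1.621% of those of like length). As shares of the 80 members these were 0, 5, 8.75 and 12.5%.

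Peak scores were 10 times the −log10 q-value given by the peak caller and are not normalised between libraries, so they were ranked within a list. The members held 84, 111, 145 and 154 peaks, with median scores of 17, 18, 23 and 21. Their median widths were 363, 637, 826 and 717 bp, and the fold enrichment over the local background had medians of 3.412, 3.609, 3.675 and 3.246. A peak in the top decile of its list was found in 3 members in GFP mock (3.75%, beside 13.1% of all protein-coding genes) and in 18 with doxycycline (22.5%, beside 9.92%). In the Cre lists it was found in 28 (35%, beside 16.7%) and 29 (36.25%, beside 9.91%). Of genes of like length, 4.7, 6.429, 8.32 and 5.565% had one. A top-decile peak at a start was found in 3 (background 4.38%), 13 (3.84%), 24 (6.7%) and 24 (3.13%) members. In GFP mock the members' share was therefore below that of all protein-coding genes and near that of genes of like length, and in the other lists it was above both.

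**Figure D4:**
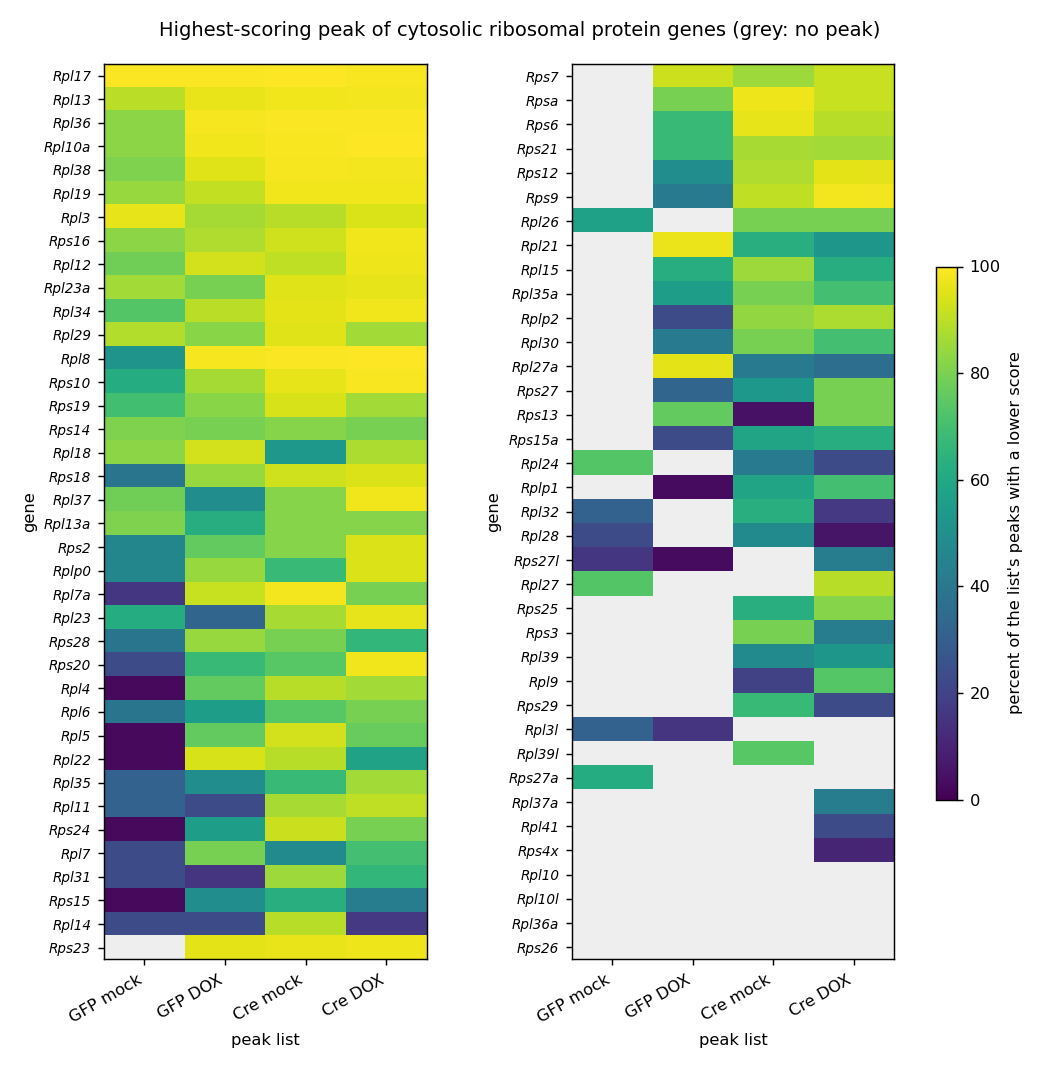
Highest-scoring peak of 75 of the 80 ribosomal protein genes (rows) in the 4 lists (columns), coloured by the percent of peaks of that list with a lower score; grey marks a gene with no peak. The first 37 genes have a peak in every list, the next block is mostly empty in GFP mock, and the last 4 genes are empty throughout.

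Large-subunit genes gave the highest scores in every list. *Rpl17*, whose protein lines the polypeptide exit tunnel, scored 95 and 111 in GFP cells without and with doxycycline and 128 and 58 in Cre cells, with fold enrichments of 6.866, 7.842, 8.365 and 4.861. It was the strongest member in every list but Cre DOX, and at least 99.14% of the peaks of each list scored lower. Its peaks covered only 18.45 to 24.85% of the extended gene.

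*Rpl8*, whose protein lies close to the peptidyl transferase centre, showed a different course, with scores of 19, 57, 96 and 90. Its peak was 2149, 3113, 3115 and 3235 bp wide in the 4 lists, the last at chr15:76903028-76906262, where it had the highest score of the members. The gene (chr15:76904078-76906314) was covered over 50.72, 73.47, 84.56 and 75.17% of its extended body. GFP mock was far below the other lists in rank, with 51.86% of the list's peaks scoring lower against at least 98.57% elsewhere.

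*Rpl10a*, which encodes the protein of the L1 stalk, had scores of 28, 46, 81 and 82. Its peaks at the start spanned 1885, 3062, 3306 and 3115 bp and covered 41.29, 82.03, 90.29 and 85.95% of the extended body. The Cre mock peak lay at chr17:28326987-28330292 and contained the pyrimidine run printed above. *Tead3*, another protein-coding gene, lies within 1 kb of *Rpl10a*, and signal from the 2 genes cannot be told apart there.

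*Rpl36* is the shortest member. Its scores were 28, 57, 103 and 60, and the peaks of GFP DOX, Cre mock and Cre DOX spanned 4050, 4095 and 4160 bp, over the gene and well past its end. The extended body was covered over 72.74, 92.72, 93.64 and 95.19%, the largest share of any member in both GFP lists. The gene *Lonp1* lies within 1 kb of it.

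*Rpl38*, a gene whose loss disturbs the patterning of the mouse skeleton, has no other protein-coding gene within 1 kb. It scored 27, 35, 68 and 48, with 33.76, 84.07, 88.22 and 99.62% of its extended body covered. The Cre DOX peak of 7430 bp (chr11:114665880-114673309) was the widest of any member.

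*Rpl13* scored 33, 40, 58 and 49, with 58.55, 64.68, 72.22 and 77.22% covered. *Rpl19*, whose protein contributes to a bridge between the subunits, scored 29, 29, 55 and 45, and *Rpl7a* scored 14, 30, 59 and 26. By rank within a list, *Rpl13* and *Rpl19* stood highest in Cre DOX and *Rpl7a* in Cre mock. *Rpl3*, at the peptidyl transferase centre, stood highest in GFP mock by score (47, then 26, 33 and 36) and by rank, although its covered share was 8.571, 8.353, 26.31 and 23.47%.

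*Rpl23a* and *Rpl29* were among the 5 strongest members of GFP mock, with scores of 30 and 32. *Rpl23a*, whose protein sits at the tunnel exit, scored 23, 43 and 40 in the other lists, and its highest-scoring peak lay past the end of the gene in every list. *Rpl29* scored 24, 43 and 29, and its highest-scoring peaks counted as start peaks only through a short transcript annotated from within the gene. Those of *Rpl17* and *Rpl3* also lay more than 1 kb from the 5′-most start in every list, and counted through another annotated start. With the 5′-most start of each gene alone, 34, 41, 53 and 61 members had a start peak in place of 41, 51, 63 and 69.

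**Figure D5:**
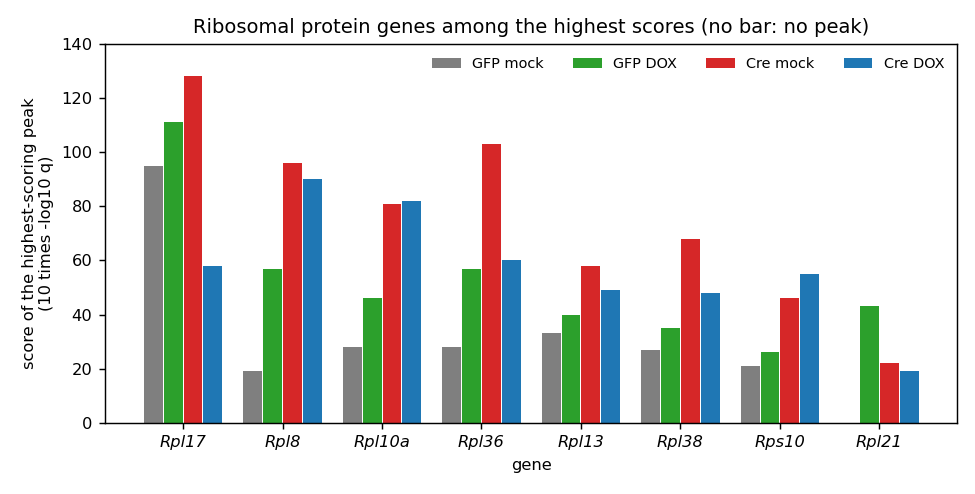
Score of the highest-scoring peak (10 times −log10 q, y axis) for 8 ribosomal protein genes (x axis), each among the 5 strongest of at least 1 list, with a bar per list and no bar where there was no peak. *Rpl17* leads in the first 3 lists, *Rpl8* leads in Cre DOX with 90, and *Rpl21* has no peak in GFP mock.

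Other large-subunit genes kept a start peak in every list at lower scores. *Rpl5* and *Rpl11*, whose proteins bind the 5S ribosomal RNA and can inhibit Mdm2, scored 13, 22, 38 and 25 and 16, 14, 31 and 32. *Rpl4* scored 13, 22, 33 and 29, *Rpl6* 17, 18, 25 and 26, *Rpl7* 15, 23, 19 and 23, and *Rpl14* 15, 14, 33 and 13. *Rpl12* scored 26, 32, 34 and 44, *Rpl34* 24, 28, 45 and 45, *Rpl18* 28, 32, 20 and 30, and *Rpl13a* 27, 19, 28 and 27. Of these 10 genes, 7 had their lowest rank within a list in a GFP list and their highest in a Cre list, while *Rpl7*, *Rpl14* and *Rpl18* did not.

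In GFP mock 15 of 31 small-subunit genes had a peak (48.39%, exact 95% interval 30.15 to 66.94%), which holds the 55% of all protein-coding genes. The large subunit had 34 of 49 (69.39%, 54.58 to 81.75%), and that interval also holds 55%. In GFP DOX the counts were 24 small-subunit genes (77.42%) and 35 large-subunit genes (71.43%), beside 46% of all protein-coding genes. They were 27 (87.1%) and 42 (85.71%) in Cre mock, beside 60.4%, and 29 (93.55%) and 44 (89.8%) in Cre DOX, beside 54.1%. Top-decile peaks were found in 0, 4, 11 and 13 small-subunit genes (0, 12.9, 35.48 and 41.94%) and in 3, 14, 17 and 16 large-subunit genes (6.12, 28.57, 34.69 and 32.65%), beside 13.1, 9.92, 16.7 and 9.91% of all protein-coding genes. The exact intervals for a peak in the 2 subunits overlapped in every list, so no difference between them was shown.

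*Rps10*, which overlaps the annotated gene RPS10-NUDT3, had the highest small-subunit score of any list, with 21, 26, 46 and 55 and 41.53, 52.29, 78.49 and 76.81% covered. *Rps18* scored 17, 25, 37 and 37 under a peak that reached 6219 bp in Cre mock, and 44.63, 83.14, 93.89 and 96.14% of it was covered. *Rps16* scored 28, 27, 37 and 45. These 3 genes stood higher in both Cre lists than in both GFP lists, by score and by rank within a list.

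*Rps19*, the gene most often mutated in Diamond-Blackfan anaemia, scored 23, 24, 39 and 29. *Rps14*, whose loss is a feature of the 5q- syndrome in humans, scored 27, 23, 28 and 26 and was thus nearly level.

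*Rps2* scored 18, 22, 28 and 37, *Rps20* 15, 20, 25 and 45, and *Rps28* 17, 25, 27 and 22. By rank within a list, *Rps2* and *Rps20* stood highest in Cre DOX, and *Rps28* in GFP DOX. In all, 29 members had a start peak in all 4 lists (36.25%, beside 13.5% of protein-coding genes).

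The P-stalk genes, whose proteins recruit elongation factors to the ribosome, all ranked lowest or had no peak in GFP mock. *Rplp0* scored 18, 25, 23 and 37, with 2.38% of its extended body covered in GFP mock and 31.94, 59.93 and 39.58% in the other lists. *Rplp1* had no peak in GFP mock and scores of 12, 21 and 23 after that, and *Rplp2* had none in GFP mock and scores of 14, 29 and 30.

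By combination of lists, 39 members had a peak in all 4 (48.75%, beside 33.5%). A further 18 members had a peak in GFP DOX, Cre mock and Cre DOX but not in GFP mock (22.5%, beside 3.66%). At the starts the same combination also held 18 members (22.5%, beside 2.68%). The 18 body members included *Rpl15*, *Rpl21*, *Rpl27a*, *Rpl30*, *Rpl35a*, *Rplp1* and *Rplp2* of the large subunit, and *Rps6*, *Rps7*, *Rps9*, *Rps12*, *Rps13*, *Rps15a*, *Rps21*, *Rps23*, *Rps27* and *Rpsa* of the small subunit.

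In this class *Rps23*, whose protein is part of the decoding centre, scored 38, 48 and 44 in these 3 lists, and 57.4, 55.6 and 70.67% of it was covered. *Rpsa*, also known as the laminin receptor gene, scored 23, 52 and 33, and *Rps6*, whose protein is phosphorylated downstream of mTOR, scored 20, 47 and 31. *Rpl21* was among the 5 strongest members of GFP DOX with 43, and scored 22 and 19 in the Cre lists. The absence from GFP mock was thus shared by genes with high and with modest scores elsewhere.

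A peak in Cre mock and in no other list, the combination the study followed, was found for 1 member with peaks of all scores (1.25%, beside 5.04%). This was *Rpl39l*, with a single peak of score 25. The study kept top-decile peaks, and with these the number was 7 (8.75%, beside 6.42%). Cre DOX alone held 3, *Rpl37a* (score 17), *Rpl41* (14) and *Rps4x* (12), beside 3.58%, and GFP mock alone held *Rps27a* (21), which encodes a fusion of ubiquitin with a ribosomal protein, beside 3.87%. No member had a peak in GFP DOX alone, beside 1.1%. Both Cre lists and no GFP list held 5, *Rpl9*, *Rpl39*, *Rps3*, *Rps25* and *Rps29* (6.25%, beside 3.43%), with scores from 14 to 27. The other combinations with members were GFP mock with both Cre lists (6 members, 7.5%, beside 5.88%), and 1 member each for both GFP lists (*Rpl3l*, beside 0.943%), both GFP lists with Cre DOX (*Rps27l*, beside 1.1%) and GFP mock with Cre DOX (*Rpl27*, beside 2.3%).

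Expressed as pairs of lists, 24 members had a peak in Cre mock and not in GFP mock (30%, beside 13.6%), and 4 the reverse (5%, beside 8.22%). In GFP cells 18 had a peak with doxycycline and not in mock (22.5%, beside 6.92%), and 8 the reverse (10%, beside 15.9%). In Cre cells 5 had a peak with doxycycline and not in mock (6.25%, beside 7.62%), and 1 the reverse (1.25%, beside 13.9%). Between the doxycycline lists 15 had a peak in Cre and not in GFP (18.75%, beside 15.2%), and 1 the reverse (1.25%, beside 7.02%). At the starts these pairs gave 27 and 5 (background 13.7 and 7.83%) between the mock lists, 20 and 10 (7.26 and 12.2%) in GFP cells, 10 and 4 (6.04 and 15.1%) in Cre cells, and 19 and 1 (10.1 and 8.3%) between the doxycycline lists. In GFP cells the doxycycline list therefore held more members than the mock list, and in Cre cells the 2 lists shared 68.

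The members that had a peak in GFP mock and none in GFP DOX included *Rpl24*, *Rpl26*, *Rpl27*, *Rpl28*, *Rpl32* and *Rps27a*. Their GFP mock scores were 24, 20, 24, 15, 16 and 21, none of them in the top decile. Of these named genes, all but *Rpl27* and *Rps27a* had a peak in both Cre lists.

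At a stricter level, a −log10 q-value of at least 5, GFP mock kept *Rpl17* only (1.25%, background 4.58%). GFP DOX kept *Rpl17*, *Rpl36* and *Rpl8* (3.75%, background 1.89%), and Cre DOX kept *Rpl10a*, *Rpl17*, *Rpl36*, *Rpl8* and *Rps10* (6.25%, background 1.88%). Cre mock kept 9, *Rpl7a*, *Rpl8*, *Rpl10a*, *Rpl13*, *Rpl17*, *Rpl19*, *Rpl36*, *Rpl38* and *Rpsa* (11.25%, background 5.23%). The members' share was below the background in GFP mock and above it in the other 3 lists. These shares rest on only 1, 3, 9 and 5 members. No interval and no share of genes of like length was computed at this level, so a difference from the background was not tested.

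No peak in any list was found for 4 members (5%, beside 26.1%), *Rpl10*, whose protein joins the large subunit late in its assembly, *Rpl36a*, *Rps26* and *Rpl10l*, an intronless copy expressed in testis. *Rpl10* and *Rpl36a* are X-linked. Of the 4 X-linked members, 0, 0, 1 and 2 had a peak, with *Rpl39* scoring 19 in both Cre lists, while 38.08, 30.49, 41.77 and 43.57% of the 948 X-linked protein-coding genes did. The exact interval for 0 of 4 reaches 60.24%, so a lower share on the X chromosome was not shown.

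The 4 copies with symbols ending in l, which have tissue-restricted or stress-related expression, had a peak in 2, 2, 1 and 1 cases. *Rpl3l*, a muscle gene, scored 16 and 13 in the GFP lists, and *Rps27l*, a p53 target, scored 14, 12 and 17 in every list but Cre mock. Cre mock was the only list in which *Rpl39l* had a peak.

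Sequence at the starts differed little from other genes in GC content, with a median of 52.4% over the 2 kb window beside 51.17%. The CpG observed-to-expected ratio was 0.676 beside 0.474, and GC skew, the excess of G over C on the coding strand in the first 1 kb, was 0.0825 beside 0.0448. A predicted G-quadruplex (G4), by the G4Hunter algorithm, was present in 63 start windows (78.75%), beside 84.14%. Predicted G4s were therefore not more common at members than at other genes.

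Among the members, those with a start peak in 4 lists had a median start GC of 54.22% and a predicted G4 in 27 of 29. Those with a start peak in 1 to 3 lists had 51.32% and a G4 in 35 of 46, and the 5 with none (6.25%, beside 49.6% of protein-coding genes), *Rpl10*, *Rpl10l*, *Rpl36a*, *Rpl39l* and *Rps26*, had 46.78% and a G4 in 1. GC content and predicted G4s thus moved together with the number of lists, as a description over these genes.

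A snoRNA gene lay in the body of 29 members, 56 snoRNA genes in all. Of these 29 members, 18, 24, 28 and 28 had a peak (62.07, 82.76, 96.55 and 96.55%). Of the 51 without, 31, 35, 41 and 45 did (60.78, 68.63, 80.39 and 88.24%). The shares of all protein-coding genes were 55, 46, 60.4 and 54.1%, so in GFP mock both groups were near the background. The covered share was 11.41, 24.02, 39.93 and 42.78% for hosts and 8.257, 18.41, 30.56 and 31.57% for the rest, and the intervals on the counts overlapped in every list.

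Neighbours could add peaks to a member. The 33 members with another protein-coding gene within 1 kb had 24, 24, 28 and 29 genes with a peak, and the 47 without had 25, 35, 41 and 44. As shares these are 72.73, 72.73, 84.85 and 87.88% with a neighbour and 53.19, 74.47, 87.23 and 93.62% without. Over all protein-coding genes they were 55, 46, 60.4 and 54.1%, so members without a neighbour were near the background in GFP mock. GFP mock was the lowest list in both groups, level with GFP DOX where there was a neighbour.

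Other genes of the translation machinery were described in the same way. Of 68 translation factor genes, 46, 53, 58 and 56 had a peak (67.65, 77.94, 85.29 and 82.35%), beside 55, 46, 60.4 and 54.1% of all protein-coding genes. They were led by *Eif4a2* (scores 23, 49, 96 and 80), *Eef1a1*, the main elongation factor gene (29, 46, 55 and 78), and *Eif4b* (41, 41, 62 and 60). Ribosome biogenesis genes gave 12, 19, 19 and 19 of 21 (57.14, 90.48, 90.48 and 90.48%). Among them was *Ncl*, which encodes nucleolin, with scores of 31, 29, 47 and 62. A small group of further ribosomal genes, including *Rack1* and *Fau*, gave 4, 6, 6 and 6 of 6 (66.67, 100, 100 and 100%). GFP mock was again the lowest list for each of these groups. High shares in the other lists were thus not particular to the cytosolic ribosomal protein genes. Peaks covered 2.446, 4.561, 8.291 and 6.974% of the translation factor genes and 6.061, 10.76, 16.69 and 14.1% of the biogenesis genes. The further ribosomal genes were covered over 16.07, 26.52, 39.45 and 41.74%, above the members in every list.

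Mitochondrial ribosomal protein genes, which serve the separate ribosome of that organelle, were unlike the cytosolic ones. Of 78, 34, 32, 51 and 37 had a peak (43.59, 41.03, 65.38 and 47.44%), beside 55, 46, 60.4 and 54.1% of all protein-coding genes. At a start 20, 20, 26 and 22 had one (25.64, 25.64, 33.33 and 28.21%), beside 30.8, 25.8, 36.7 and 27.6%. The exact intervals of the mitochondrial set held the background in every list, for bodies and for starts. Their covered share of 2.019, 2.629, 4.555 and 4.096% was above that of all protein-coding genes and far below that of the cytosolic genes. These genes are also longer, with a median of 7899.5 bp beside 3328.5 bp for the cytosolic ones. In GFP DOX, Cre mock and Cre DOX their exact interval for a peak lay below that of the cytosolic genes, and in GFP mock the intervals overlapped.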

How the data were processed

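The authors digested genomic DNA with 5 restriction enzymes, pulled down hybrids with the S9.6 antibody, sequenced 1 library per condition and called peaks with MACS2 on mm10 for each library. The deposited lists are in broad-peak format, although the command in the methods has the narrow-peak option. The deposited score is 10 times the −log10 q-value, rounded down. The deposited fold enrichment is a ratio to the caller's local background, and −log10 p and q are the caller's. None is normalised between libraries, read depth is not in the lists, and whether inputs served as controls is not given in the sources used here. Broad calling, if used, links nearby signal and gives wide peaks.

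Peaks were intersected with GENCODE M21 genes (Python 3.11.15, numpy 2.4.6, scipy 1.17.1) by at least 1 bp, and bases under peaks were summed. Scripts were tested on simulated data. Groups follow the labels. No test was made, since each condition has 1 library. Members and gene lists were chosen with earlier results of these data known. Members with a start peak in all 4 lists, the 5 highest scores of each list and up to 5 members of single-list patterns are named with values, and other genes of those classes by symbol. Values of some members are not reported here one by one, though counts include them. Genes with other patterns were named after their values were seen. G4Hunter used a window of 25 bases and an absolute score of 1.5. Alternatives changed the peaks kept, flanks, windows, overlap and members.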

Additional observations from a re-analysis of the deposited data

Results flagged for a closer look

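The results here showed a difference between doxycycline and mock with 1 sign in GFP cells and the other in Cre cells, each with 1 library per condition, and none of these differences was tested. The number of large-subunit genes with a top-decile peak was 3 and 14 in GFP cells (mock, then doxycycline) and 17 and 16 in Cre cells, so that the change with doxycycline in Cre cells minus that in GFP cells was -12. Members without a snoRNA gene gave 0, 10, 17 and 15, also a difference of -12. As shares these were 6.122, 28.57, 34.69 and 32.65% of large-subunit genes and 0, 19.61, 33.33 and 29.41% of members without a snoRNA gene. Over all protein-coding genes they were 13.1, 9.92, 16.7 and 9.91%. The complementary groups showed no change of sign, with 0, 4, 11 and 13 small-subunit genes and 3, 8, 11 and 14 members with a snoRNA gene. Exons of the members were covered over 10.82, 25.98, 41.94 and 41.37%, a difference of -15.73 percentage points. *Rpl27*, a large-subunit gene, had a peak in GFP mock and Cre DOX and in neither other list, which gives a difference of 2 in presence for the extended body and of 2 for the start. The start of *Rpl32* had the same pattern, with a difference of 2.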

How the results depend on the processing

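No paired analysis was possible because each condition had 1 library, and for the same reason no replicate could be left out. Of the values recomputed under other settings, 84 stayed within 1.5 times the reported count and 40 did not. Values are given for GFP cells (mock, then doxycycline) and then for Cre cells. With top-decile peaks, members with a peak numbered 3, 18, 28 and 29, with 2 in all 4 lists and 7 in Cre mock only, and start peaks 3, 13, 24 and 24. At a −log10 q of at least 5 these were 1, 3, 9 and 5, with 1 in all lists and 5 in Cre mock only, and starts 1, 3, 9 and 5. At a −log10 q of at least 2, members numbered 26, 38, 61 and 57, with 22, 30, 53 and 50 at starts, 17 in all lists and 6 in Cre mock only. With equal numbers of peaks, members numbered 36, 59, 67 and 63, and 4 were in Cre mock only. With equal covered length, a setting chosen after seeing the data, Cre DOX had 47 and 40 at starts, and 4 were in Cre mock only. The 18 members away from other genes gave 8, 12, 12 and 15, with 6 in all lists and 7, 9, 10 and 14 at starts; fewer genes were counted there. Without the copies ending in l, none was in Cre mock only (0). GFP mock had the fewest members with a peak under each of these settings. Most of these settings were not applied to all protein-coding genes, so the counts there have no background beside them. The causes were not tested. Depth is unknown, and absence of a peak does not show absence of hybrids.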
